A study of Mus musculus with 2 samples.

Results

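The histone genes were taken from the GENCODE M21 basic annotation as the protein-coding genes whose symbols begin with Hist1h to Hist4h, H2af, H3f3 or H1f. They numbered 82 of 21938 protein-coding genes outside the mitochondrial genome. Of these, 67 were clustered genes, with 54 in Hist1 on chromosome 13, 10 in Hist2 on chromosome 3, 2 in Hist3 on chromosome 11 and 1, Hist4h4, on chromosome 6. The other 15 were variant genes, which lie outside Hist1, Hist2 and Hist3, although H2afj stands beside Hist4h4. A gene was called bound when the summit of a YY1 peak, its point of highest enrichment, lay within 1000 bp of one of the gene's annotated transcript starts, and a peak that met this for any protein-coding gene is called a promoter peak. The rule used the symbols and the annotation type and no measured value, but the members were chosen with earlier results of these data known.

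The data were the peaks of 1 YY1 chromatin immunoprecipitation sequencing (ChIP-seq) library from mouse muscle stem cells (MuSCs), called against 1 background library. The cells were sorted as YFP+ cells from the hindlimb muscles of Ctrl mdx mice, which carry Pax7CreERT2 and R26YFP with both Yy1 alleles intact, and were pooled over animals. The mdx allele removes dystrophin. The sort rests on a YFP reporter that CreERT2 switches on after tamoxifen in cells that express Pax7, a gene of muscle stem cells. The study gave tamoxifen to its Ctrl and dKO mice, although its methods do not restate this for the ChIP-seq pool. The labels call the cells WT and describe cultured MuSCs, whereas the study's methods describe freshly isolated cells of Ctrl mdx mice, and the background is an input in the labels and an IgG immunoprecipitation in the methods. The age of these mice was not given in the sources used here, and a peak list holds no markers with which the cell type could be checked. There was no replicate library, so no difference below carries a test, and the intervals are exact Clopper-Pearson 95% intervals that cover counting error only.

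Across the genome 4681 peaks were deposited, of which 3777 were promoter peaks, with a median fold enrichment of 5.10 (range 1.49 to 14.4). Fold enrichment divides the height of the fragment pile by the local background, after 1 is added to each. Solving it together with the deposited p-value gave whole numbers of fragments for all 4681 peaks, with a median of 14 fragments at the summit (range 8 to 394). The commonest background, 1.54 fragments per position, corresponds to 13357713 fragments in the YY1 library if the caller's standard mouse genome size was used. Most peaks therefore rest on few fragments, and a weak site could be missed at this depth.

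Clustered histone genes are transcribed in S phase, when new DNA needs histones. Nearly all lack introns, and their mRNAs end in a stem-loop that the protein SLBP binds, in place of a poly(A) tail. Variant genes are mostly expressed throughout the cell cycle, often have introns and give polyadenylated mRNAs, and their proteins replace the standard histones at particular places: H3f3a and H3f3b encode the replacement H3, which the HIRA and DAXX-ATRX chaperones deposit, and H2afz encodes the H2A variant that the SRCAP and p400 complexes place beside promoters. YY1 is a zinc-finger transcription factor that binds many promoters at a sequence built on ATGGC.

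The sequences at 8 of the 18 summits are shown first, the 3 of the variant genes and 5 of the clustered genes, to let a reader see summits before a start and inside coding sequence. They come from the GRCm38 reference, read 5′ to 3′ along the gene's strand, 60 bases to either side of the summit unless an untranslated region began sooner. Capitals mark ATGGC, the core of the YY1 motif, or its reverse complement GCCAT, and a sequence without capitals holds neither. The 3 variant genes with a peak were H3f3a (chr1:180814002-180814122, minus strand), H2afz (chr3:137864346-137864466, plus strand) and H2afj (chr6:136808340-136808426, plus strand), of which H2afj is shown from its start codon.
H3f3a: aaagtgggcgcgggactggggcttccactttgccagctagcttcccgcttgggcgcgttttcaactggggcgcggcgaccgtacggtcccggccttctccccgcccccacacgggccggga
H2afz: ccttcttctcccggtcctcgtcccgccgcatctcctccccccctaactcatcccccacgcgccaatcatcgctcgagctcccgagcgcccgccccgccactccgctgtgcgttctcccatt
H2afj: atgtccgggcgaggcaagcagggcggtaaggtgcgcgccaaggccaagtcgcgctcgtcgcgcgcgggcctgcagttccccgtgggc
Of the clustered genes, Hist1h4a (chr13:23761350-23761470, minus strand) had its summit before the start, and Hist1h4h (chr13:23531127-23531247, plus strand), Hist2h2aa1 (chr3:96245648-96245768, plus strand), Hist2h3c2 (chr3:96238662-96238782, minus strand) and Hist1h3d (chr13:23575902-23576022, plus strand) had it inside the coding sequence.
Hist1h4a: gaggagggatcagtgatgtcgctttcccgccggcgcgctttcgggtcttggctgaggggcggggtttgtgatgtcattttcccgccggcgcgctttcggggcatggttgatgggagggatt
Hist1h4h: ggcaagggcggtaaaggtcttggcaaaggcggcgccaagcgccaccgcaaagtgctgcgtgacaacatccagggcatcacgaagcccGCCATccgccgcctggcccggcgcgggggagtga
Hist2h2aa1: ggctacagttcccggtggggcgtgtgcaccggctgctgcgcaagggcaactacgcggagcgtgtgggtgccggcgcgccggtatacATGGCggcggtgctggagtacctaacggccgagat
Hist2h3c2: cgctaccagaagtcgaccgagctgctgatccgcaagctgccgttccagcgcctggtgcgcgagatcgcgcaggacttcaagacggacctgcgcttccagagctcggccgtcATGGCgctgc
Hist1h3d: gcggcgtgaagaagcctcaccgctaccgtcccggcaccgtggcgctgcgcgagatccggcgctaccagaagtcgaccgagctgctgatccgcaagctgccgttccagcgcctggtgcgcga
The 3 clustered sequences that hold the core, each once and inside coding sequence, were all chosen for display. Over all 18 summit sequences of this kind they were 3 of 15 clustered and 0 of 3 variant ones.

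To see whether YY1 marked clustered and variant histone genes to different extents, their shares of bound genes were set beside that of all genes. YY1 was bound at 17 of 67 clustered genes, 25.4% (15.5 to 37.5%), and at 3 of 15 variant genes, 20% (4.33 to 48.1%). Over all protein-coding genes 4119 of 21938 were bound, 18.8% (18.3 to 19.3%). Both intervals hold the share of all genes and overlap each other widely, so the number of bound genes set neither class apart from the other or from genes in general at this number of members. Nearly all clustered genes have a single exon (61 of 67), and of the 1267 other protein-coding genes with 1 exon 8.21% were bound (6.76 to 9.86%), or 8.91% (7.34 to 10.7%) of the 1167 that are not olfactory receptor genes. The interval of the clustered histone genes lies above those of both sets of single-exon genes, although neighbouring members share peaks and are not independent. The separation depended on how sequence that is repeated in the genome was treated. With all peaks kept but without the 10 clustered genes whose surroundings, 1000 bp to either side of a start, are over 50% repeated in stretches of 50 bases, 13 of 57 were bound, 22.8% (12.7 to 35.8%). Without peaks over 50% repeated in stretches of 150 bases, 8 of 67 clustered genes were bound, 11.9% (5.30 to 22.2%), against 7.58% of single-exon genes (6.18 to 9.17%), and with stretches of 50 bases 6 of 67, 8.96% (3.36 to 18.5%), against 7.42% (6.04 to 9.003%), so that the intervals overlapped. The genes under the removed peaks stay in those 67, and both counts include Hist1h4h, which was then bound through a summit inside a tRNA gene alone. Without that summit they were 7 of 67, 10.4% (4.30 to 20.3%), and 5 of 67, 7.46% (2.47 to 16.6%).

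**Figure D1:**
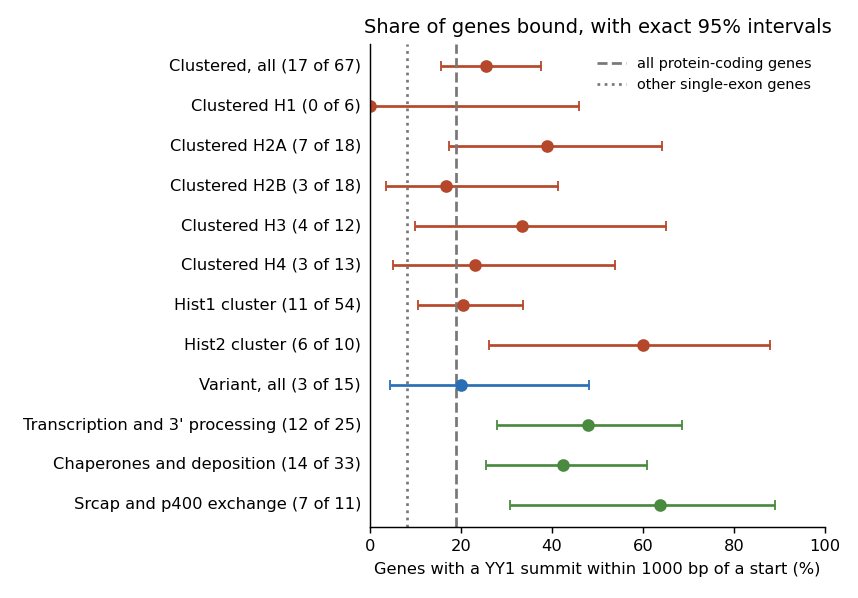
Share of genes with a YY1 summit within 1000 bp of a start, in percent, for the clustered genes (red), the variant genes (blue) and 3 lists of histone-related genes (green), with points for the share and bars for exact 95% intervals. The dashed line at 18.8% is the share of all protein-coding genes and the dotted line at 8.21% that of other genes with 1 exon; the variant and Hist1 points lie beside the dashed line and Hist2 lies at 60%.

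By the kind of histone, 7 of 18 clustered H2A genes, 3 of 18 H2B genes, 4 of 12 H3 genes, 3 of 13 H4 genes and 0 of 6 H1 genes were bound. H2A, H2B, H3 and H4 form the core of the nucleosome and H1 binds the DNA that enters and leaves it. The H1 interval reaches 45.9%, so the absence of a bound linker histone gene is within what a share like that of all genes could give. The variant class had 2 of 9 bound for H2A, 1 of 2 for H3 and 0 of 4 for H1.

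By cluster, Hist2 stood highest with 6 of 10 genes bound, 60% (26.2 to 87.8%), whereas Hist1 had 11 of 54, 20.4% (10.6 to 33.5%). The interval of Hist2 lies above the share of all genes, but its 6 genes share 5 peaks, and 4 of the 6 form an inverted duplication described with the repeats. Without peaks over 50% repeated, 2 of the 10, Hist2h2ab and Hist2h2ac, stayed bound. Neither gene of Hist3 was bound, with the nearest summits 208.9 kb from Hist3h2a and 214.7 kb from Hist3h2ba. Hist4h4 was also not bound, and its nearest summit, 3.95 kb upstream, is the one inside its neighbour H2afj.

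Hist1 falls into 4 blocks when gaps of over 100 kb divide it. The first block, from Hist1h2bl to Hist1h2br, spans 119.6 kb with 18 genes, 5 of them bound through 5 peaks. A block of 5 genes over 9.65 kb had 2 bound through 1 peak. The longest block, 234.6 kb from Hist1h4h to Hist1h1a with 29 genes, had 4 bound through 4 peaks. The last block holds Hist1h2ba and Hist1h2aa, a pair known for expression in testis, and had none. Every peak within these blocks and within Hist2 had its summit within 1000 bp of a member's start, 4 of them upstream of the gene.

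**Figure D2:**
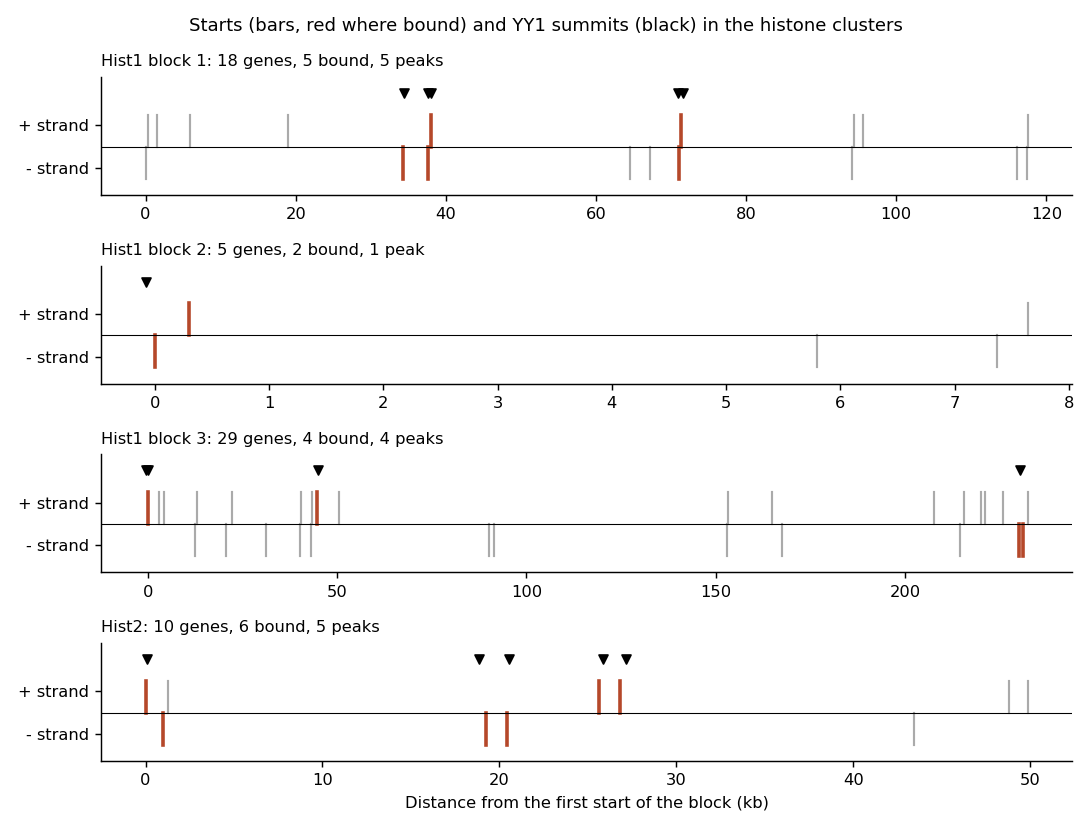
Transcript starts and YY1 summits in the 3 Hist1 blocks that hold a peak and in Hist2, by distance in kb from the first start of each block. Bars stand for starts, upward on the plus strand and downward on the minus strand, red where bound and grey where not, and black triangles for summits; the block of 29 genes holds 4 peaks and Hist2, with 10 genes, holds 5.

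The 82 genes had 18 distinct promoter peaks, 15 at clustered and 3 at variant genes. Their median fold enrichment was 4.66 (range 2.83 to 7.49) against 5.13 for all promoter peaks, and the median pile at the summit was 13.5 fragments (range 10 to 21) against 14. They were narrower, with a median width of 260.5 bp against 363 bp, and 5 of the 18 had the smallest width in the list, 215 bp. In strength the histone peaks thus lay within the range of other promoter peaks of this library.

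Among H2A genes, Hist1h2ah had the strongest peak, with a pile of 19 fragments where the background was 2.34, a fold enrichment of 5.99, at 82 bp downstream of its start (chr13:22035326-22035583), and the same peak bound its neighbour Hist1h2bk. Hist1h2an followed with 13 fragments over 1.54, a fold enrichment of 5.52, at 165 bp downstream. Hist2h2aa2 had 16 fragments over 2.76, a fold enrichment of 4.52, at 129 bp upstream, and was the only bound clustered H2A gene with its nearest summit before the start. Hist1h2ak had 12 fragments over 1.98, a fold enrichment of 4.37, at 118 bp downstream. Its fold enrichment was close to that of Hist2h2aa1, which had 15 fragments over 2.76 and 4.25, at 211 bp downstream.

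Hist2h2ab had the weakest histone peak, with 13 fragments over a high background of 3.95, a fold enrichment of 2.83 and a q-value of 0.0763, at 88 bp downstream (chr3:96219778-96220116). Only 1.99% of all peaks had a lower fold enrichment. Hist2h2ac was bound through that peak alone, 927 bp from its start, and its call falls away at a distance of 500 bp. The start of Bola1, which is no histone gene, also lies within 1000 bp of this summit.

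Of the 3 bound H2B genes, 2 had a summit inside the gene. Hist1h2bn had a peak with 10 fragments over 1.61 and a fold enrichment of 4.21 at 113 bp downstream, and Hist1h2bp one with 10 fragments over 1.55 and 4.31 at 268 bp downstream. A pile of 10 was the lowest among the histone peaks. Hist1h2bk had no peak inside the gene, its nearest summit being 384 bp upstream in Hist1h2ah.

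Among H3 genes, Hist2h3c1 had the highest fold enrichment of all histone peaks, 7.49 with 18 fragments over 1.54, above 92.1% of all peaks. The peak upstream of Hist1h4h had a higher pile, 21 fragments. Hist2h3c1 had its summit 360 bp downstream of the start (chr3:96246941-96247247). Its copy Hist2h3c2 had 10 fragments over 1.91 and a fold enrichment of 3.78 at 405 bp downstream. Hist1h3d had 14 fragments over 1.91, a fold enrichment of 5.15, at 199 bp downstream. Hist1h3a had no peak of its own and was counted through the peak of Hist1h4a, 976 bp downstream of its start and so near the limit of 1000 bp.

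The H4 genes were bound through 4 peaks, 3 of them upstream of the start. Hist1h4k had 13 fragments over 1.70, a fold enrichment of 5.19, at 120 bp upstream. Hist1h4a had 18 fragments over 3.95, a fold enrichment of 3.84, at 180 bp upstream. Hist1h4h had a pair of peaks, the weaker with 13 fragments over 2.96 and a fold enrichment of 3.53 inside its coding sequence, 137 bp downstream. The stronger one lay 643 bp upstream, with 21 fragments over 2.12 and a fold enrichment of 7.04 (chr13:23530275-23530579), the highest pile of the 18 and the farthest from a histone start.

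The summit upstream of Hist1h4h lay inside a tRNA-Met gene of the RefSeq annotation, n-TMcat9 (chr13:23530348-23530419, minus strand, GRCm38), which is shown in capitals with 20 bases to either side.
n-TMcat9: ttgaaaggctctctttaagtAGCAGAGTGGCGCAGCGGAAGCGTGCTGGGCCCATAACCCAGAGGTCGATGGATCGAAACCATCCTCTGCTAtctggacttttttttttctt
Its GC content was 41.3%, the lowest of the 18 peaks, whose median was 68.6%. No other histone peak covered a tRNA gene, and this was the only annotated tRNA gene within the Hist1 and Hist2 blocks. Across the genome 31 of 4681 summits, 0.662%, lay inside one. The upstream peak is given with Hist1h4h because of its distance alone. With all peaks kept Hist1h4h was also bound through the peak in its coding sequence, but without peaks over 50% repeated in stretches of 150 or 50 bases the upstream one was all that kept it bound.

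Turning to the variants, H3f3a had 15 fragments over 1.83 and a fold enrichment of 5.66 at 119 bp upstream (chr1:180813768-180814240), a site it shares with the antisense gene H3f3aos. H2afj, a small H2A gene that resembles the clustered ones, had 13 fragments over 1.72 and a fold enrichment of 5.15 at 33 bp downstream (chr6:136808280-136808542). H2afz had 16 fragments over 2.55 and a fold enrichment of 4.79 at 81 bp upstream (chr3:137864140-137864556). These 3 summits lay 33 to 119 bp from a start, and the summits of the clustered peaks 82 to 643 bp, with a median of 165 bp.

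The other 12 variant genes had no summit within 1000 bp of a start. H3f3b, which encodes the same protein as H3f3a, came nearest, with a summit 2.46 kb upstream. H2afv, the second H2A.Z gene, had its nearest summit at 24.7 kb, H2afx, whose product is phosphorylated at DNA breaks, at 26.9 kb, and the macroH2A genes H2afy and H2afy2 at 62.0 and 88.0 kb. The variant linker histones lay at 34.1 kb for H1f0, 47.0 kb for H1foo of oocytes, 63.4 kb for H1fx and 111.6 kb for H1fnt of testis. For H2afb2, H2afb1 and H2afb3 on the X chromosome the nearest summit was 4.31, 4.64 and 7.94 Mb away. Within pairs of genes for like proteins, H3f3a was thus called and H3f3b was not, and H2afz was called and H2afv was not.

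Of the 50 clustered genes that were not bound, 11 had a summit between 1000 and 5000 bp away, and the whole range was 1.17 to 214.7 kb with a median of 18.4 kb. Those 11 were Hist1h1a, Hist1h2ad, Hist1h2ae, Hist1h2af, Hist1h2bf, Hist1h2bg, Hist1h3g, Hist1h3i, Hist1h4b, Hist2h2be and Hist4h4. Hist2h2be was the nearest, at 1.17 kb from the summit in Hist2h2ab. Of the linker histone genes, only Hist1h1a came within this distance, at 2.26 kb.

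The summit lay inside coding sequence in 12 of the 18 histone peaks, 66.7% (41.0 to 86.7%), namely in 11 of 15 clustered peaks, 73.3% (44.9 to 92.2%), and in 1 of 3 variant peaks, that of H2afj. For all promoter peaks the share was 10.5% (396 of 3777). Histone genes are short, and coding sequence covered a median of 31.8% of the 1000 bp to either side of a clustered start, 17.2% around a variant start and 3.60% around the start of a protein-coding gene. Other single-exon genes had a similar cover, 35.5%, and 42 of their 111 promoter peaks had the summit in coding sequence, 37.8% (28.8 to 47.5%). The share in clustered genes was above that of single-exon genes as a whole, but the intervals overlap. Without peaks over 50% repeated in stretches of 150 bases the share was 3 of 6 clustered peaks, 50% (11.8 to 88.2%), against 40.6% (30.9 to 50.8%) for single-exon genes. Over all histone peaks, clustered and variant, it was then 4 of 9, 44.4% (13.7 to 78.8%). Without those over 50% repeated in stretches of 50 bases it was 2 of 7 histone peaks, 28.6% (3.67 to 71.0%). The 6 summits outside coding sequence were all upstream, at H3f3a, H2afz, Hist1h4k, Hist1h4a, Hist2h2aa2 and the tRNA gene before Hist1h4h.

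**Figure D3:**
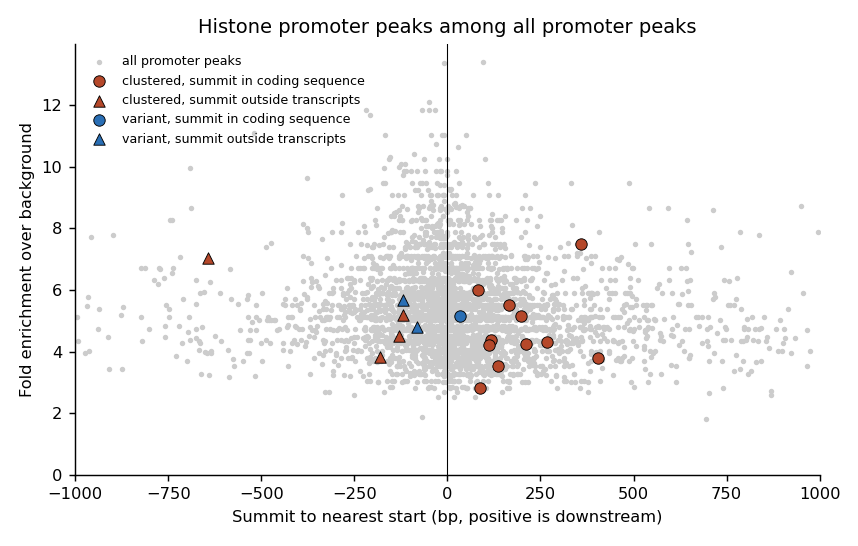
Fold enrichment over background against the distance in bp from the summit to the nearest start, for the 3777 promoter peaks (grey) and the 18 histone peaks, red at clustered and blue at variant genes. Circles have the summit in coding sequence and triangles outside transcripts; the 11 red circles lie 82 to 405 bp downstream, and the heights of the histone peaks lie within the grey cloud.

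Many H2A and H2B genes stand head to head and share the DNA between their starts as a promoter. There were 13 such divergent pairs of members, 12 of an H2A with an H2B gene and Hist1h2bh with Hist1h3f, with a median of 268 bp between the starts. Of these pairs 4 had a peak within 1000 bp of a start, and in 0 of the 4 did a summit lie between the starts. Among other divergent protein-coding pairs with a peak, 169 of 434, 38.9%, had a summit between the starts, although their starts were closer together (median 131 bp). The exact interval for a share of 0 of 4 reaches 60.2%, which holds 38.9%, so 4 pairs cannot set the histone pairs apart from the others. Hist1h2ak with Hist1h2bn and Hist1h2an with Hist1h2bp each had a peak in both coding sequences and none between, Hist1h2ah with Hist1h2bk had a peak in the H2A gene, and Hist2h2ac with Hist2h2be had the peak of Hist2h2ab, beyond the far end of Hist2h2ac.

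**Figure D4:**
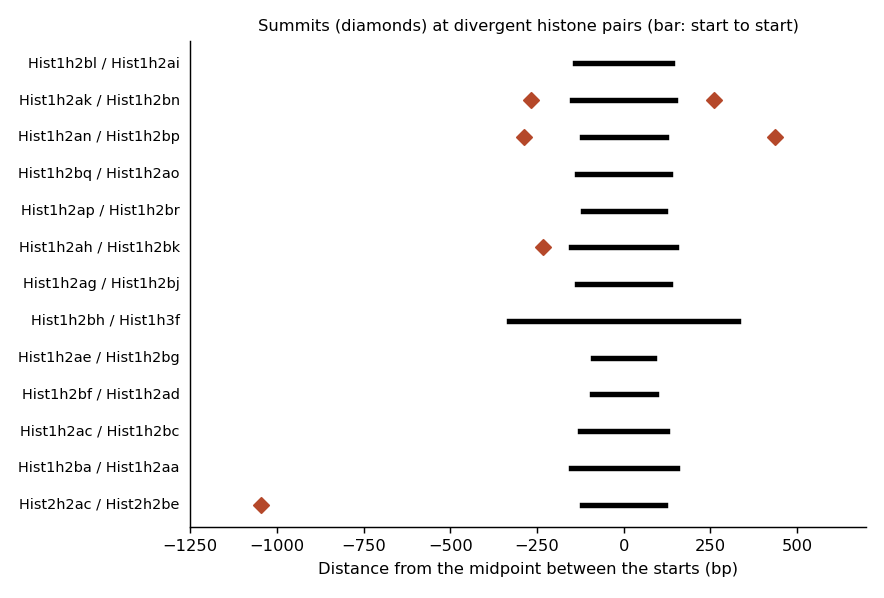
YY1 summits (red diamonds) at the 13 divergent pairs of histone genes, by distance in bp from the midpoint between both starts, with the minus-strand gene at the left and a black bar from start to start. Each of the 6 summits lies outside its black bar, on coding sequence.

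The coding sequences of clustered histone genes are near copies of each other, so the share of each peak that occurs more than once in the reference was computed. In 9 of 15 clustered peaks over 50% of the stretches of 150 bases, the length of the reads, occurred more than once, against 0 of 3 variant peaks and 0.927% of all promoter peaks (35 of 3777). Of these 9 peaks 8 had the summit in coding sequence. With stretches of 50 bases the number was 11 of 15, against 1.40% of all promoter peaks. Every 150-base stretch was repeated under the peaks of Hist1h2bp, Hist1h3d, Hist2h2aa1, Hist2h3c1 and Hist2h3c2, and none was under those of Hist1h2ak, Hist1h4k, Hist1h4a, Hist2h2ab, H3f3a, H2afz, H2afj and the upstream peak of Hist1h4h.

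Copies of the same sequence were not all called. All 150-base stretches under the Hist1h2bp peak are also in Hist1h2br, which was not bound, and all of those under the Hist1h3d peak are in Hist1h3h, which was not bound. In Hist2, Hist2h2aa1 and Hist2h2aa2, and Hist2h3c1 and Hist2h3c2, are inverted copies and all 4 were bound, with fold enrichments of 4.25 and 4.52 and of 7.49 and 3.78. The summits of the first pair lay at different places, 211 bp downstream and 129 bp upstream, and 30.1% of the stretches under the Hist2h2aa2 peak were in Hist2h2aa1. Stretches under the Hist2h3c1 and Hist2h3c2 peaks also occurred in 1 member that was not bound. Hist1h2bq, Hist1h2ao, Hist1h4m, Hist1h4n, Hist1h2ap and Hist1h2br form another duplicated group, with 69.9 to 100% of the 150-base stretches around their starts repeated, and none of the 6 was bound. A single read that lies wholly in such a stretch has no single place in the reference, but the reads were paired, and the mate of such a read can lie in sequence that occurs once. If the caller's standard mouse genome size was used, the depth solved from the peaks nearly equals the count of uniquely mapping reads in the study's reporting. In that case the peaks were probably called on the reads so described. How a read was judged unique is not given in the sources used here, and which copy YY1 occupied where a peak consists of repeated stretches alone was not tested. Without the peaks in which over 50% of the 150-base stretches were repeated, 8 of 67 clustered genes, 11.9%, were bound (Hist1h2ak, Hist1h2bn, Hist1h3a, Hist1h4a, Hist1h4h, Hist1h4k, Hist2h2ab and Hist2h2ac), of which Hist1h4h rests on the summit in the tRNA gene, whereas the 3 variants and 18.6% of all protein-coding genes were. The part of repeated sequence in the calls at clustered genes was not tested.

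**Figure D5:**
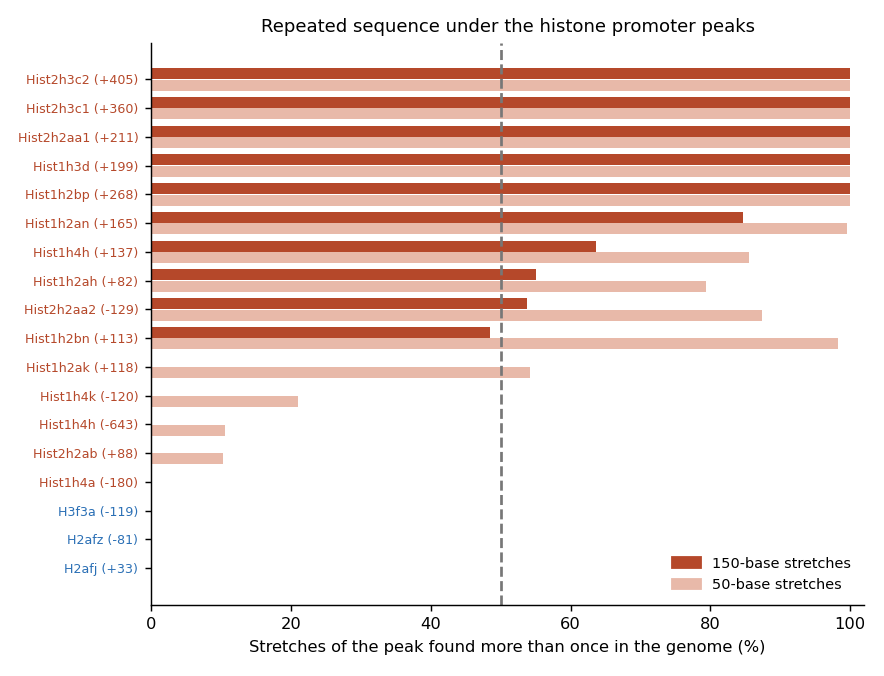
Share of the 150-base (red) and 50-base (pale) stretches under each of the 18 histone peaks that occur more than once in the reference, in percent, with the nearest member and its distance to the summit in bp at the left, in red for clustered and blue for variant genes. In 9 clustered peaks the red bar passes the dashed line at 50%, and the 3 variant peaks have no bar because their shares are 0.

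The YY1 motif was then sought around the summits, to a distance of 100 bp and on either strand. AANATGGC was present in 0 of the 18 histone peaks, which allows a share of up to 18.5%, against 7.55% of all promoter peaks. Over the 1000 bp to either side of a start it was in 3 of 3 bound and 5 of 12 unbound variant genes and in 5 of 17 bound and 20 of 50 unbound clustered genes, against 29.5% of all protein-coding genes. Its core ATGGC, which any AANATGGC contains, was present in 8 of 18, 44.4% (21.5 to 69.2%), against 30.6%. All 8 were clustered, 8 of 15 with an interval of 26.6 to 78.7%, and 0 of 3 variant peaks held it. They were the peaks of Hist1h2bn, Hist1h2an, Hist1h2bp, Hist1h4a, Hist2h2ab, Hist2h3c2, Hist2h2aa1 and the one inside Hist1h4h. The intervals hold the shares of all promoter peaks, and a match or its lack is a description of these letters in this window.

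Known elements of histone promoters were looked for on both strands from 250 bp before to 50 bp after each start, bound or not. CCAAT was in 15 of 17 bound and 41 of 50 unbound clustered promoters, against 39.1% of all protein-coding promoters. TATAAA was in 14 of 17 bound and 23 of 50 unbound clustered promoters, against 12.7%. The octamer ATTTGCAT, which POU2F1 binds, was in 3 of 17 bound and 12 of 50 unbound ones, against 1.58%, and it was found in H2A (7 of 18) and H2B (8 of 18) promoters and in none of the clustered H1, H3 and H4 promoters. Of the 3 bound variant promoters 2 held CCAAT and 0 held TATAAA or the octamer.

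Genes of the machinery that makes and places histones had higher shares of bound members than the histone genes themselves (24.4%, 15.6 to 35.1%), with intervals that overlap in part. The lists of these genes were chosen with results known, so the difference is a description. Of 25 genes for the transcription of clustered histone genes and the processing of their mRNA ends, 12 were bound, 48% (27.8 to 68.7%), with a median fold enrichment of 5.54. Slbp, whose product binds the stem-loop, had 19 fragments over 1.57 and a fold enrichment of 7.78 at 113 bp downstream of its start. Pou2f1, the octamer factor, had 16 fragments and a fold enrichment of 6.70. The cap-binding genes Ncbp1 and Ncbp2 stood at 7.10 and 7.49, and the cleavage genes Sympk, Cstf2t, Cpsf2, Cpsf3 and Cstf2 between 3.28 and 5.92. The remaining bound genes were the Sm protein genes Snrpe (5.56) and Snrpd3 (4.73), which also serve splicing, and Zfp473 (4.70). Npat, the coactivator of all clustered histone genes, had no summit within 288.9 kb, Casp8ap2 (FLASH) none within 308.1 kb and Hinfp, the H4 promoter factor, none within 55.95 kb. The other genes of this list were not bound either, and were named after their values were seen. They were Lsm10, Lsm11, Clp1, Srrt, Eri1, Ttf2, Gon4l, Snrpb, Snrpf and Snrpg.

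Of 33 histone chaperones and deposition factors, 14 were bound, 42.4% (25.5 to 60.8%), with a median fold enrichment of 4.42. For the replacement H3, Hira had 18 fragments over 1.54 and a fold enrichment of 7.49, its partners Ubn2 and Ubn1 6.83 and 5.19, and Daxx 4.47, while Atrx had its nearest summit at 1947 kb. Cabin1, a further partner of HIRA that was named after its value was seen, was not bound, at 73.11 kb. For the H3 of S phase, the CAF-1 genes Chaf1a (3.78 kb) and Chaf1b (75.57 kb) were not bound, whereas Rbbp4, which CAF-1 shares with other complexes, had a weak peak of 2.86. Rbbp7 had a peak of 3.70. Asf1a (217 kb) and Asf1b (17.47 kb) were not bound either. Npm1 (7.89), Set (6.06), Nap1l1 (5.47), Spty2d1 (4.24) and Nasp (3.19) were bound. Of the factors for the centromeric H3, Mis18a (4.37) and Hjurp (4.33) were bound. Oip5 (70.65 kb), named after its value was seen, was not bound, and neither was Cenpa itself (202.8 kb).

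Of 11 genes for the complexes that exchange H2A.Z, 7 were bound, 63.6% (30.8 to 89.1%), with a median fold enrichment of 4.29. Ep400 had 23 fragments over 2.12 and a fold enrichment of 7.68, Yeats4 6.70, Actl6a 4.34, Kat5 4.29, Vps72 3.82, Znhit1 3.78 and Srcap 3.28. The other genes of this list, Ruvbl1, Ruvbl2, Dmap1 and Brd8, named after their values were seen, were not bound. Anp32e, whose product removes H2A.Z, was not bound, at 47.06 kb. The intervals of these 3 lists lie above 18.8%, the share of all genes, but no test was run on them and the lists were chosen with results known.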

How the data were processed

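YY1 ChIP-seq was done on 1 pool of MuSCs with 1 background library. The authors trimmed the reads, aligned them to mm10 with Bowtie2 and dropped redundant ones (the reads are described as uniquely mapping, by a criterion not given in the sources used here), and MACS2 was run with 0.0001 as the largest p-value (versions are not given in the sources used here). The deposited peaks hold a fold enrichment over the local background, a ratio, and −log10 p-values and q-values. The background library was not analysed here.

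Tools were samtools 1.23.1, pysam 0.24.0, matplotlib 3.10.9, scipy 1.17.1, pandas 2.3.3 and numpy 2.4.6 under Python 3.11.15. Fragments and background at each summit were solved from fold enrichment and p-value, and the largest misfit was 0.0003. Summits were assigned to GENCODE M21 basic starts within 1000 bp, and a gene with several starts counted once. Repeated stretches were counted on both strands over chromosomes 1 to 19, X and Y. Placement of summits, motif search and fragment recovery were tested on simulated data. Exact binomial intervals stand at the 95% level. The named genes were all bound members, all unbound variants, unbound clustered genes within 5000 bp of a summit, and bound genes of the lists with a fixed set of others. Some further unbound list genes, Cabin1 among them, were named after their values were seen. One list gene is counted but not reported by name here. The members and lists were chosen with earlier results of these data known. Alternatives covered the window, limits on q-value and fold enrichment, the starts used and, added after seeing the data, repeated sequence.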

Additional observations from a re-analysis of the deposited data

How the results depend on the processing

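No paired analysis was possible because there was 1 library, and no replicate could be left out. The number of variant genes bound stayed within 1.5 times 3 under all 10 alternatives run. That of clustered genes stayed within 1.5 times 17 under 8 of 13, and came to 8 where only peaks enriched at least 5-fold were kept, 8 without peaks over 50% repeated in stretches of 150 bases and 6 in stretches of 50 bases, or 7 and 5 without the tRNA summit as well. In the first 3 of these the histone peaks numbered 8, 9 and 7 in place of 18, and those with the summit in coding sequence 5, 4 and 2 in place of 12. The core ATGGC was in 8 peaks where AANATGGC was in 0, also within 250 bp and over the whole peak. The share of all protein-coding genes was 17.7% at 500 bp, 19.3% at 2000 bp, 14.6% from 1000 bp upstream to 100 bp downstream, 17.4% with a q-value under 0.01, 11.15% over peaks enriched at least 5-fold and 17.4% with the outermost start. The repeat alternatives and the counts in coding sequence were added after seeing the data. Histone summits held 10 to 21 fragments and the smallest pile of the list 8, so weaker sites could be missed.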

Other observations

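The extended core CATGGCG was noted in the printed coding sequences and was looked for afterwards, so its counts are a description. On the coding strand it was in the coding sequence of 7 of the 82 genes, all in Hist2: Hist2h2ab, Hist2h2ac, Hist2h2aa1, Hist2h2aa2, Hist2h3c1, Hist2h3c2 and Hist2h3b. The first 6 were bound and Hist2h3b was not. No bound gene of Hist1 held it there. From the summit in the same gene it began 25 bp downstream in Hist2h2aa1, 50 bp in Hist2h3c2, 110 bp in Hist2h3c1 and 115 bp in Hist2h2ab. Hist2h2aa1 and Hist2h2aa2 are copies, as are Hist2h3c1 and Hist2h3c2, so the words within each pair are not independent. Over the 1000 bp to either side of a start and on both strands, the word was far more widespread, in 13 of 17 bound and 17 of 50 unbound clustered genes, in 11 of 13 clustered H4 genes and in 14.8% of all protein-coding genes. Windows of neighbouring members overlap.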
